A study of Mus musculus with 20 samples.

Results

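Insulin-like growth factor 1 (IGF1) was given for 2 h to tenocytes, the fibroblast-like cells of tendon, and the resulting transcripts were compared with those of untreated tenocytes taken at 0 h. The comparison uses 8 of the 20 RNA sequencing libraries of a time course with 0, 1, 2, 6 and 24 h of IGF1, chosen by their labelled time: 4 libraries at 0 h and 4 at 2 h, with every expressed gene tested. The cells came from tail tendon of adult mice, wild type and of strain C57Bl/6, and the treated cells received 100 ng/mL of recombinant IGF1. The comparison asks which transcripts differ after 2 h of the growth factor. Whether replicates are separate mice or cultures is not stated in the labels, so p-values measure the spread among these libraries, which may be technical. Untreated cells kept for 2 h are not analysed here, so IGF1 and time in culture cannot be told apart.

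IGF1 binds a receptor tyrosine kinase, the product of Igf1r, which recruits the insulin receptor substrates Irs1 and Irs2 and opens a pair of routes, PI3 kinase with AKT and mTOR, and RAS with ERK. AKT keeps FoxO transcription factors out of the nucleus, so genes that FoxO factors drive are known to fall with insulin or IGF1, while ERK switches on immediate early genes within minutes. In tendon, IGF1 is known as a growth factor for tenocytes and for the collagen-rich matrix they make.

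Levels below are CPM, read counts divided by the size of each library and set to a common total, and the 4 values of a time are always those of replicates 1 to 4. Changes are log2 fold changes of 2 h over 0 h ± SE, with n = 4 libraries at each time. A gene was called changed at a Benjamini-Hochberg adjusted p under 0.05 in edgeR's quasi-likelihood test, two-sided, fitted over 13794 genes that hold 99.9% of the counts. Total counts per library ran from 18666812 to 22282231 at 0 h and from 17245411 to 20857193 at 2 h, and mitochondrial genes held 1.31% to 1.75% of them. Transcripts that define tendon cells were present at both times, among them Scx, Tnmd and Col1a1 with the values given below. In bulk RNA, fewer cells of a type and less RNA per cell cannot be told apart.

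The 4 libraries at 2 h differed among themselves more than those of the other times. Among 10540 genes with a mean of at least 5 CPM at 0 h or 2 h, the median SD of log2 CPM was 0.178 at 2 h against 0.0870 to 0.105 at the other 4 times, and 94 genes had an SD over 1, against 1 to 6. Replicate 2 had 162 genes at least 2-fold above the median of the other 3 libraries of 2 h and 33 at least 2-fold below, replicate 4 had 3 above and 245 below, replicate 1 had 48 above and 0 below, and replicate 3 had 7 above and 70 below. No 0 h library had more than 9 genes above or 6 below. Replicate 4 deviated with gene length: of 4 equal bins of genes by exon length, the shortest lay 0.29 log2 units above the other 2 h libraries and the longest lay -0.31 from them, while the other 7 libraries stayed between -0.12 and 0.13.

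Transcripts of other cell types also differed among the 2 h libraries. The summed level of 16 macrophage markers was 282 to 355 CPM at 0 h, and 616, 1136, 425 and 515 CPM in 2 h replicates 1 to 4. All 4 were above the 0 h range, with replicate 2 the highest. A raised level was not limited to 2 h. The mean log2 level of the tested markers was 4.05 in 1 h replicate 4 and 3.78 in 6 h replicate 2. In 2 h replicates 3 and 4 it was 3.66 and 3.79. The sum of 11 Schwann cell markers was 119 CPM in 2 h replicate 2, against 27.6 to 38.1 CPM in the other 2 h libraries and 31.1 to 34.6 CPM at 0 h. Pericyte markers reached 99.8 CPM in that library against 39.7 to 57.6 CPM in the others of 2 h, and adipocyte markers 287 CPM against 124 to 166 CPM. Most of that pericyte sum was Cspg4 (42.7 CPM) and Mcam (24.6 CPM). Most of the adipocyte sum was Lpl, at 233 CPM in that library. Adipoq, Plin1, Cidec and Lep were each at most 0.755 CPM in any 2 h library. Lymphocyte markers summed to at most 2.26 CPM and neutrophil and mast cell markers to at most 2.31 CPM, with Cd8a and Cd79b at 0 counts in all 8 libraries. Markers of keratinocytes and skeletal muscle stayed at or under 7.43 CPM. Endothelial markers summed to 43.7 to 46.4 CPM at 0 h and 27.1 to 61.3 CPM at 2 h, Tek being the most abundant, with a mean of 38.5 CPM at 0 h and 21.0 CPM at 2 h. Replicate 2 of 2 h stood apart here too, with 9.51 CPM of Cdh5, 7.75 CPM of Pecam1 and 4.53 CPM of Tie1, against at most 0.478, 0.478 and 0.0478 CPM in the other 2 h libraries. The mean log2 level of the 10 fibroblast markers was 9.64 to 9.72 at 0 h and 9.71 to 9.83 at 2 h. Their sum, 59506 to 69994 CPM at 0 h and 41090 to 58892 CPM at 2 h, is mostly Col1a1 and Col1a2. The part of these shifts in the results was not tested, and counts that move without the libraries concerned are given with their values.

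**Figure D1:**
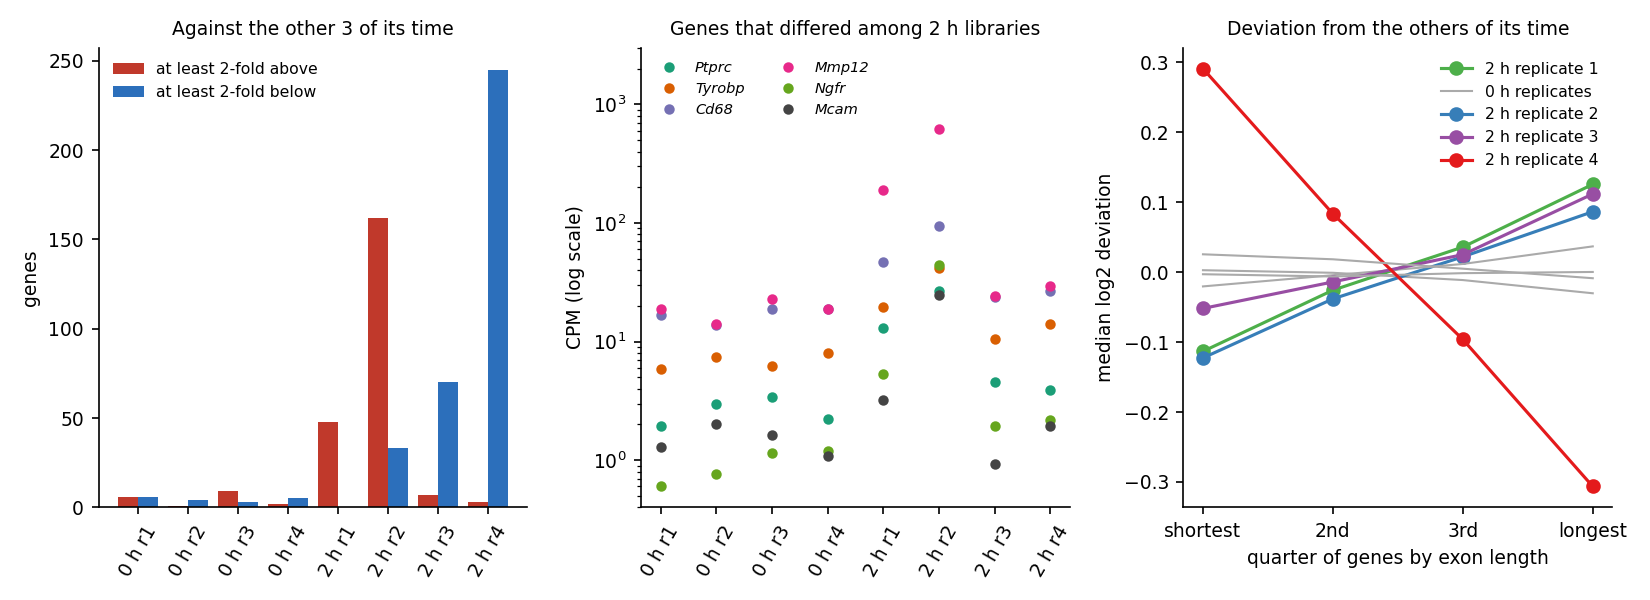
Left: number of genes at least 2-fold above (red) or below (blue) the median of the other 3 libraries of the same time, for 0 h and 2 h replicates (r) 1 to 4. Middle: CPM (log scale) of 3 macrophage markers (Ptprc, Tyrobp, Cd68), of Mmp12 and of Ngfr and Mcam in each library, highest in 2 h replicate 2 for all 6. Right: median log2 deviation of each library from the others of its time in 4 bins of genes by exon length, with replicate 4 of 2 h running from 0.29 to -0.31.

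Of 13794 genes tested, 3646 were called, 26.4% of them: 1964 were higher at 2 h (14.2%) and 1682 were lower (12.2%). The counts of list members called higher or lower are to be read beside these 2 shares of all tested genes. No test of a list as a set was run. A change of at least 2-fold was found for 354 higher and 236 lower genes. In 3308 of the called genes the 4 libraries of 2 h did not overlap those of 0 h, and this held for 30.5% of all tested genes, called or not. The median log2 change of all tested genes was -0.01. Leaving out 2 h replicates 1 and 2, which held the highest macrophage marker levels, left 3017 calls, and leaving out replicate 4 of 2 h gave 4657. With the mean log2 level of the macrophage markers as a term in the fit (the marker term), 1378 genes were called. That level was 3.02 to 3.23 at 0 h and 4.20, 5.07, 3.66 and 3.79 at 2 h, so it runs partly together with time.

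**Figure D2:**
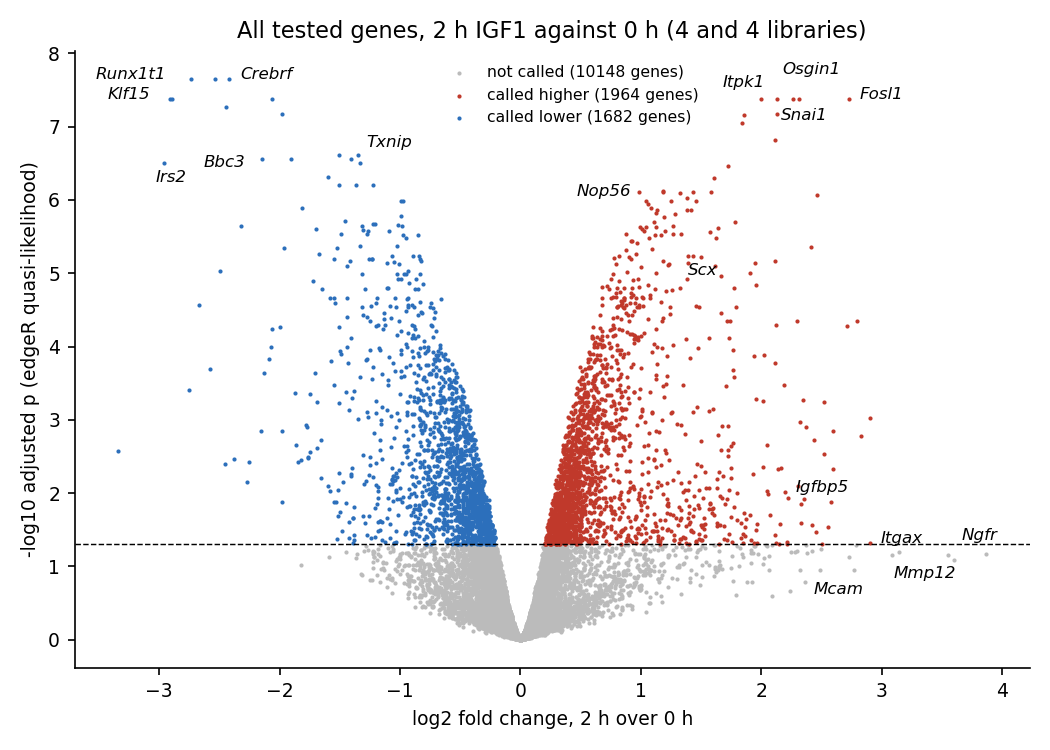
Each point is 1 of 13794 tested genes: log2 fold change of 2 h over 0 h against -log10 of the adjusted p of edgeR's quasi-likelihood test, with the dashed line at 0.05. Irs2 and Klf15 lie far to the left above the line, whereas Ngfr and Mmp12, far to the right, lie under it.

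The largest well-measured fall was that of Irs2, an adaptor of the insulin and IGF1 receptors (chr8:10984681-11008458, GRCm38, mm10). Irs2 measured 41.5, 36.3, 37.3 and 36.3 CPM at 0 h and 4.83, 6.29, 5.35 and 2.93 CPM at 2 h (log2 change -2.96 ± 0.18, adjusted p = 3.18e-07). All 4 treated libraries lay far under the lowest untreated one. Irs1, the other main adaptor, measured 95.9, 98.7, 84.1 and 88.3 CPM at 0 h and 38.6, 34.01, 43.8 and 11.5 CPM at 2 h (-1.52 ± 0.36, adjusted p = 0.0202). The groups did not overlap, with 2 h replicate 4 the lowest, and Irs1 was no longer called without 0 h replicate 2 (adjusted p = 0.0538) and without 2 h replicates 1 and 2 (adjusted p = 0.101). Its call was also lost with no count filter (adjusted p = 0.0511), with the replicate number as a block (adjusted p = 0.0647) and under the marker term (adjusted p = 0.193), with changes of -1.53, -1.64 and -1.65.

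Both receptors that IGF1 can act through were lower. Insr, the insulin receptor, measured 71.6, 80.7, 75.2 and 77.6 CPM at 0 h and 49.8, 49.05, 42.5 and 31.96 CPM at 2 h (-0.81 ± 0.12, adjusted p = 4.61e-04), with every 2 h library under the 0 h range. Igf1r measured 171, 214, 179 and 203 CPM at 0 h and 145, 155, 164 and 118 CPM at 2 h (-0.40 ± 0.11, adjusted p = 0.0164), and it was no longer called without 0 h replicate 2 (adjusted p = 0.0636) or replicate 4 (adjusted p = 0.0568) or under the marker term (adjusted p = 0.101). The ligand Igf1 was not called (-0.21 ± 0.08, adjusted p = 0.0619), with values from 159 to 177 CPM at 2 h, all under the 180 to 208 CPM of 0 h. It was called lower by DESeq2 (adjusted p = 0.0318), by limma voom (adjusted p = 0.0151), in the fit of all 20 libraries (adjusted p = 0.00569) and in the authors' deposited table (adjusted p = 0.00537). Gab1, a docking protein of growth factor receptors, fell (-1.26 ± 0.10, adjusted p = 2.64e-06), from 35.7 to 39.1 CPM at 0 h to 14.1 to 18.6 CPM at 2 h.

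Among the IGF binding proteins, Igfbp5, a secreted protein that binds IGF1 in the matrix, measured 53.6, 64.3, 70.6 and 57.7 CPM at 0 h and 262, 527, 186 and 149.6 CPM at 2 h (2.20 ± 0.42, adjusted p = 0.00968). Each 2 h library was above every 0 h library, and they ranged from 150 to 527 CPM. Without 2 h replicates 1 and 2 the change was 1.45 (adjusted p = 2.58e-06). Igfbp3, the main carrier of IGF1 in blood, measured 293, 287, 312 and 308 CPM at 0 h and 358, 469, 312 and 373 CPM at 2 h (0.34 ± 0.11, adjusted p = 0.0396); this call was lost in 7 of 8 fits that left out 1 library (all but 2 h replicate 3), with adjusted p of 0.0572 to 0.112, and with the replicate block (adjusted p = 0.0538) and without 2 h replicates 1 and 2 (adjusted p = 0.176). Stc1, which encodes stanniocalcin 1, an inhibitor of a protease that cuts IGF binding proteins, measured 0.788, 2.08, 1.91 and 1.23 CPM at 0 h and 2.63, 6.09, 2.19 and 2.52 CPM at 2 h (1.17 ± 0.39, adjusted p = 0.0411), and its call was lost in 5 of 8 such fits (0 h replicates 1, 3 and 4, and 2 h replicates 1 and 2), with adjusted p of 0.0518 to 0.131, and without 2 h replicates 1 and 2 (adjusted p = 0.247). Under the marker term the direction of both turned, to -0.07 for Igfbp3 (adjusted p = 0.747) and -0.04 for Stc1 (adjusted p = 0.973). In the IGF axis list of 20 tested genes, these 3 were called higher and 6 lower (median -0.16), Pappa2 being the sixth.

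Of 28 tested FoxO factors and known FoxO targets, 20 fell and 2 rose, against 12.2% and 14.2% of all tested genes, and the median change was -0.61. Klf15, a Kruppel-like factor of metabolism, measured 32.3, 27.01, 31.4 and 27.04 CPM at 0 h and 3.30, 3.82, 4.89 and 3.73 CPM at 2 h (-2.91 ± 0.14, adjusted p = 4.25e-08). Ccng2, cyclin G2, a brake on the cell cycle, measured 61.03, 58.6, 61.1 and 62.3 CPM at 0 h and 11.5, 17.4, 9.73 and 9.81 CPM at 2 h (-2.32 ± 0.16, adjusted p = 2.26e-06). Bbc3, which encodes the death-promoting protein PUMA, measured 19.5, 16.8, 16.4 and 15.6 CPM at 0 h and 3.49, 4.23, 4.09 and 3.61 CPM at 2 h (-2.15 ± 0.13, adjusted p = 2.76e-07). In each of these the 2 h libraries lay far below the 0 h libraries and close to each other, apart from a somewhat higher Ccng2 value in replicate 2. These genes were also among the largest falls picked for having no overlap, so the separation is in part set by that choice.

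Txnip, an inhibitor of thioredoxin and of glucose uptake, fell from 169 to 198 CPM to 69.1 to 76.4 CPM (-1.35 ± 0.08, adjusted p = 2.47e-07). Cdkn1b, the cyclin-dependent kinase inhibitor p27, fell to 34.7 to 38.6 CPM from 69.7 to 81.6 CPM (-1.01 ± 0.08, adjusted p = 2.21e-06). Atg14, needed for autophagosome formation, fell (-1.04 ± 0.15, adjusted p = 2.15e-04). The members that rose were Ddit4, an inhibitor of mTOR complex 1 that glucocorticoids and hypoxia also induce, and Sod2. Ddit4 measured 27.1, 27.7, 27.04 and 26 CPM at 0 h and 80.99, 111, 102 and 92.3 CPM at 2 h (1.84 ± 0.10, adjusted p = 8.83e-08), so it went against the direction of most of the list in all 4 libraries. The 20 falls were 20 without 2 h replicates 1 and 2 and 18 with the macrophage marker level in the model.

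The letters of the FoxO core motif were looked up in promoter windows of 300 bases (250 before to 50 after a gene's start) from RefSeq, build GRCm38.p6. Of the 13794 tested genes, 9632 had an entry. A gene was counted if any of its windows had a match. The motif GTAAACA, searched on both strands, was in 5 of 25 FoxO list members with an entry (20%). It was in 5.36% of the genes called lower, 2.02% of those called higher and 3.15% of all tested genes. Of all 27025 genes with an entry 4.05% had it, and of the YAP and TAZ list described below 3 of 16 (18.8%). Other motifs were also frequent in the FoxO list. The E-box CACGTG was in 7 of the 25 (28%, against 11.8% of tested genes). The hypoxia element core ACGTGC was in 5 (20%, against 9.53%). The stretches below end just before the start of the gene, 5′ to 3′, with the motif or its reverse complement in capitals. The genes shown were picked for having a match. Pim1, which is not in the list, was also among the largest falls. Of the other largest falls, Irs2, Klf15, Klf11 and Crebrf had no match in their windows. Elovl6 and Tcf7, which rose, each had a match.
Pim1 (chr17:29492935-29493084, plus strand): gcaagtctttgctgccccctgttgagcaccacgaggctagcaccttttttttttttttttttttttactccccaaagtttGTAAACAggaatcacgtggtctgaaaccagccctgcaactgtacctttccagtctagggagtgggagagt
Txnip (chr3:96557807-96557956, plus strand): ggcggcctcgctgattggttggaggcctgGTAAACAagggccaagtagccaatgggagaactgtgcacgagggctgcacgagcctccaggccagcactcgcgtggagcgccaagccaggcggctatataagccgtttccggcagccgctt
Bbc3 (chr7:16310061-16310260, plus strand): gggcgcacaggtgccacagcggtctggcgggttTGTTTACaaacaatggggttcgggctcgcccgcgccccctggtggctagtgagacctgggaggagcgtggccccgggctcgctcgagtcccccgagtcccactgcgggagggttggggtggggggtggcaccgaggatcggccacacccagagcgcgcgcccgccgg
A match is a description of these letters and shows no binding.

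Other large falls were found outside the FoxO list. Pim1, a serine/threonine kinase gene induced by cytokines, measured 35.2, 32.3, 30.2 and 34.4 CPM at 0 h and 3.59, 5.79, 4.43 and 3.90 CPM at 2 h (-2.90 ± 0.14, adjusted p = 4.25e-08). Runx1t1, a transcriptional corepressor, measured 28.5, 30.9, 31.7 and 27.6 CPM at 0 h and 4.69, 4.68, 4.55 and 3.84 CPM at 2 h (-2.73 ± 0.11, adjusted p = 2.23e-08). Arid5b, a DNA-binding chromatin regulator, measured 141, 155, 139.6 and 143 CPM at 0 h and 27.2, 31.7, 27.5 and 19.8 CPM at 2 h (-2.44 ± 0.12, adjusted p = 5.44e-08). In these genes the spread within each time was small beside the difference, and no library of 2 h came near the 0 h range. They were picked for a large fall without overlap and for a small p, so this separation is in part set by their choice.

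Crebrf, a regulator of the CREB3 family of transcription factors, fell from 100 to 109 CPM at 0 h to 16.2 to 22.1 CPM at 2 h (-2.42 ± 0.10, adjusted p = 2.23e-08). Klhl24, a substrate adaptor of a ubiquitin ligase, fell from 95.6 to 105 CPM to 11.5 to 24.3 CPM (-2.50 ± 0.19, adjusted p = 9.39e-06). Trp53inp1, a p53 target that promotes autophagy and cell death, fell from 116 to 139 CPM to 26.3 to 33.7 CPM (-2.06 ± 0.10, adjusted p = 4.25e-08). Fam43a (-1.98 ± 0.10, adjusted p = 6.79e-08), Pnrc1 (-1.51 ± 0.09, adjusted p = 2.47e-07) and Dnajc28 (-2.00 ± 0.24, adjusted p = 5.50e-05) also fell, each with no overlap between the times. The rule that picked Dnajc28 required no overlap, and the other genes were picked for a small p.

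In the list of 31 PI3 kinase, AKT and mTOR genes, 6 fell (19.4%) and 2 rose (6.45%), with a median of -0.13, so most members were not called. Pik3ip1, an inhibitor of PI3 kinase, measured 40.4, 41.4, 38.8 and 39.3 CPM at 0 h and 12.6, 10.3, 16.1 and 16.8 CPM at 2 h (-1.52 ± 0.13, adjusted p = 4.60e-06). Rictor, the defining subunit of mTOR complex 2, measured 62.3, 68.7, 66.9 and 60.8 CPM at 0 h and 41.6, 41.1, 40.4 and 23.01 CPM at 2 h (-0.82 ± 0.16, adjusted p = 0.00405), and 2 h replicate 4 was the lowest. Tsc1, a subunit of the complex that restrains mTOR complex 1, fell (-0.62 ± 0.15, adjusted p = 0.0103), and its adjusted p with the marker level in the model was 0.101. Ddit4 and Rps6kb2 were the 2 that rose.

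**Figure D3:**
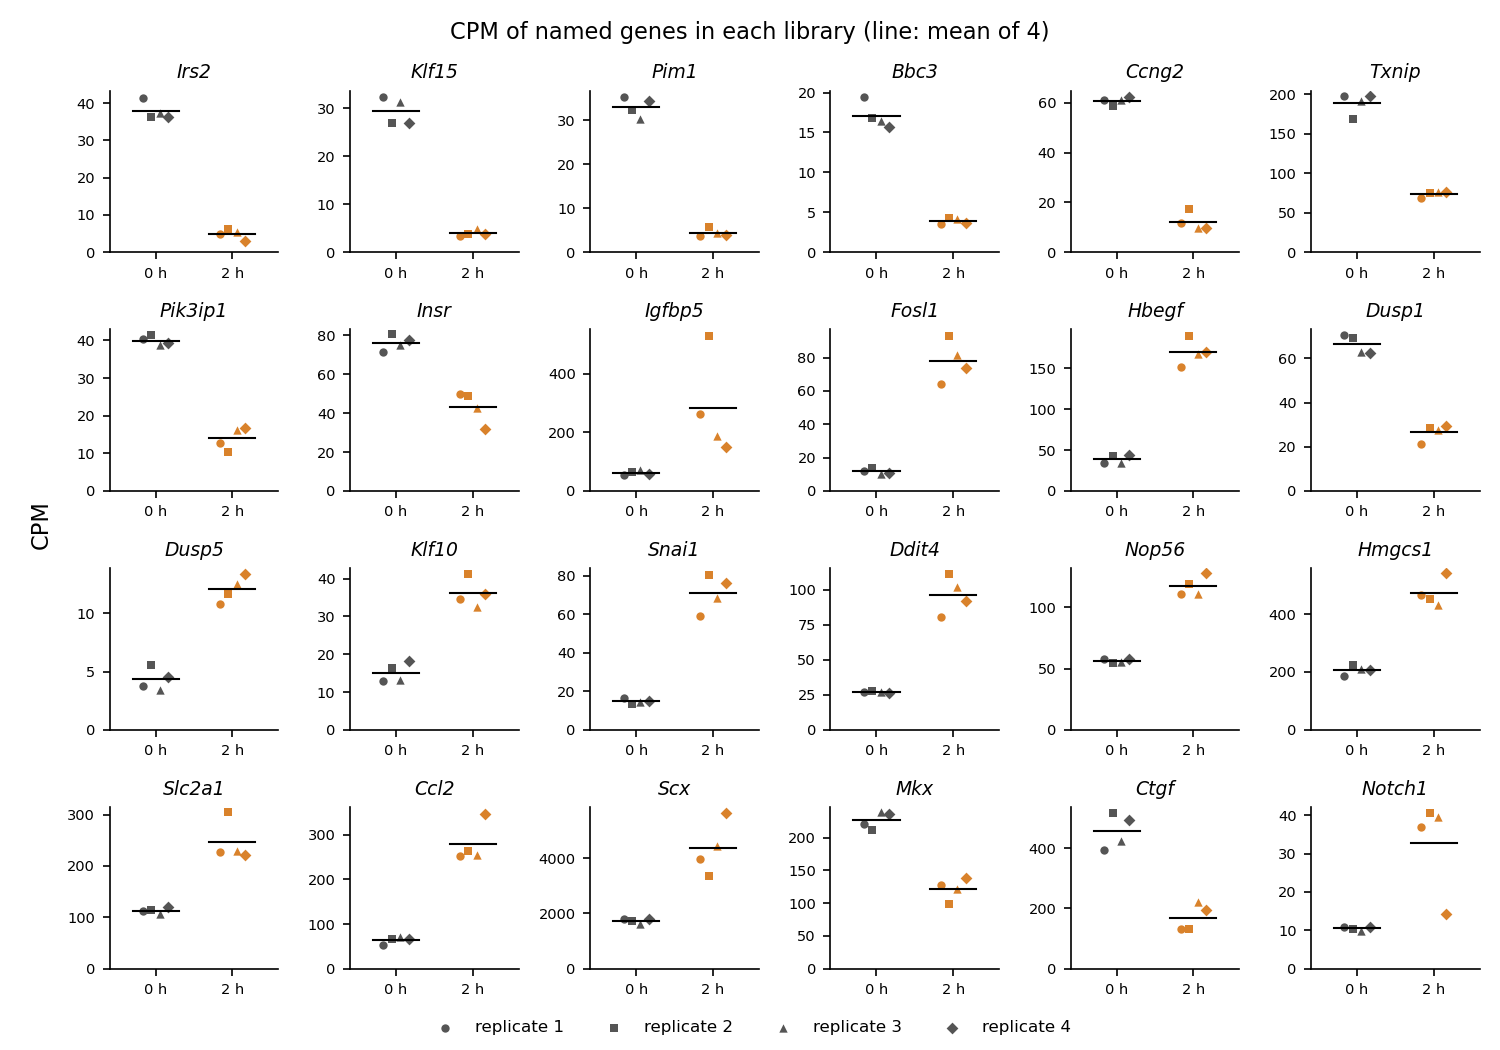
CPM of 24 named genes in the 4 libraries of 0 h (grey) and of 2 h (orange), with marker shapes for replicates 1 to 4 and lines for the mean of 4; each axis starts at 0. The 4 and 4 libraries do not overlap in any of the 24 genes, while Igfbp5 and Notch1 vary most among the 2 h libraries.

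Of 24 tested immediate early factors, 14 rose and 1 fell, with a median change of 0.71. Fosl1, a subunit of the AP-1 transcription factor, measured 12, 14.1, 10.1 and 11.03 CPM at 0 h and 64.2, 92.9, 81.9 and 73.9 CPM at 2 h (2.73 ± 0.13, adjusted p = 4.25e-08). Its locus (chr19:5447547-5455946) shares 57.2% of its exonic bases with Ccdc85b on the opposite strand, and whether the counting used strand is not given, so reads of the pair cannot be told apart. Arc, an activity-regulated cytoskeletal gene, measured 5.24, 5.23, 3.28 and 3.98 CPM at 0 h and 17.7, 11.2, 26.7 and 21.7 CPM at 2 h (2.12 ± 0.25, adjusted p = 1.67e-04). Egr1, a zinc finger factor that binds tendon gene promoters, measured 28.03, 32.6, 26.3 and 27.6 CPM at 0 h and 65.8, 73.04, 77.5 and 62.6 CPM at 2 h (1.28 ± 0.10, adjusted p = 1.55e-06). Its relatives Egr2 (1.67 ± 0.19, adjusted p = 3.45e-05) and Egr3 (1.57 ± 0.19, adjusted p = 7.67e-05) also rose, and the 2 h libraries lay above all 0 h libraries in each of these genes.

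The member that fell was Btg2, an antiproliferative gene (-0.85 ± 0.12, adjusted p = 1.81e-04), from 48.6 to 56.0 CPM to 21.8 to 33.0 CPM; with the macrophage marker level in the model its adjusted p was 0.0655. Under that term 9 of the immediate early factors were called higher, and without 2 h replicates 1 and 2 there were 14. Ier5l, an immediate early gene outside the list, rose from 11.7 to 15.0 CPM to 37.4 to 45.5 CPM (1.72 ± 0.11, adjusted p = 3.45e-07).

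Of 14 Kruppel-like factors, 7 fell (50%) and 2 rose (14.3%, against 14.2% of all tested genes), with a median of -0.58. Klf11, a repressor linked to TGF-beta signalling, measured 26.6, 24.7, 25.7 and 23.8 CPM at 0 h and 4.35, 4.73, 4.20 and 4.07 CPM at 2 h (-2.53 ± 0.11, adjusted p = 2.23e-08). Klf5, a factor of proliferating cells, fell from 51.5 to 53.6 CPM to 21.1 to 23.9 CPM (-1.22 ± 0.08, adjusted p = 6.28e-07). Klf7 fell (-1.20 ± 0.30, adjusted p = 0.0160), with 3.33 CPM in 2 h replicate 4 against 9.04 to 10.97 CPM in the other 3. Under the marker term the adjusted p of Klf7 was 0.0748. Klf10, an early gene of TGF-beta signalling, was one of the risers and measured 12.9, 16.3, 13.1 and 18.2 CPM at 0 h and 34.7, 41.4, 32.5 and 35.9 CPM at 2 h (1.26 ± 0.13, adjusted p = 1.67e-05), and Klf16 was the other (0.64 ± 0.08, adjusted p = 1.00e-04).

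Of 18 genes of ERK feedback, 8 rose (44.4%) and 2 fell (11.1%, against 12.2% of all tested genes), with a median of 0.48. These genes encode phosphatases and adaptors that damp growth factor signals. Errfi1, an inhibitor of the EGF receptor, measured 23.5, 26.5, 19.4 and 24.6 CPM at 0 h and 108, 173, 113 and 107 CPM at 2 h (2.41 ± 0.17, adjusted p = 4.40e-06). Phlda1 measured 2.83, 3.10, 3.22 and 2.89 CPM at 0 h and 9.62, 10.1, 11.1 and 10.7 CPM at 2 h (1.78 ± 0.14, adjusted p = 2.01e-06). Spry4, a Sprouty inhibitor of RAS signalling, measured 6.90, 11.7, 6.72 and 7.34 CPM at 0 h and 26.5, 25.2, 27.2 and 24.4 CPM at 2 h (1.66 ± 0.16, adjusted p = 1.08e-05), and Dusp5, a nuclear ERK phosphatase, measured 3.75, 5.53, 3.44 and 4.55 CPM at 0 h and 10.8, 11.6, 12.5 and 13.4 CPM at 2 h (1.48 ± 0.16, adjusted p = 2.86e-05). Every 2 h library was above every 0 h library in these 4 genes. The 2 falls were phosphatases as well: Dusp1, which acts on stress-activated kinases, measured 70.7, 69.4, 62.9 and 62.6 CPM at 0 h and 21.4, 28.7, 27.5 and 29.4 CPM at 2 h (-1.31 ± 0.10, adjusted p = 2.28e-06), and Dusp16 fell (-0.60 ± 0.13, adjusted p = 0.00377).

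Growth factor ligands and receptors went both ways, with 12 of 28 higher and 6 lower (median 0.21). Hbegf, a ligand of the EGF receptor, measured 34.4, 43.1, 33.7 and 44.6 CPM at 0 h and 152, 189.9, 168 and 170.2 CPM at 2 h (2.13 ± 0.11, adjusted p = 6.67e-08). Apln, the peptide apelin, measured 5.93, 4.62, 8.14 and 5.78 CPM at 0 h and 29.5, 42.4, 22.5 and 24.96 CPM at 2 h (2.29 ± 0.23, adjusted p = 4.48e-05). Pdgfb, a platelet-derived growth factor chain, was low throughout, at 0.927, 1.07, 0.983 and 1.04 CPM at 0 h and 1.48, 4.38, 2.88 and 1.66 CPM at 2 h (1.37 ± 0.35, adjusted p = 0.0123), and its adjusted p was 0.486 with the macrophage marker level in the model. Bdnf, a neurotrophin, fell from 24.0 to 39.8 CPM to 12.8 to 14.6 CPM (-1.31 ± 0.14, adjusted p = 2.86e-05). With the marker level as a term 5 members were called higher.

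Among the largest rises and those with the smallest p were genes of varied roles. The largest rises were picked for having no overlap, so the distance between the times is in part set by that choice. S1pr1, a receptor of sphingosine-1-phosphate, measured 3.38, 4.77, 3.005 and 4.02 CPM at 0 h and 23.6, 24.4, 16.8 and 18.9 CPM at 2 h (2.46 ± 0.17, adjusted p = 8.54e-07). Bdkrb2, a bradykinin receptor, measured 6.39, 4.06, 5.96 and 6.06 CPM at 0 h and 23.2, 50.3, 22.5 and 20.1 CPM at 2 h (2.37 ± 0.33, adjusted p = 0.00127). Sema7a, a membrane-anchored semaphorin, measured 2.41, 2.995, 3.005 and 3.27 CPM at 0 h and 12.5, 30.1, 12.7 and 11.4 CPM at 2 h (2.52 ± 0.34, adjusted p = 5.75e-04). In the last 2 genes replicate 2 was over 2-fold above the other 2 h libraries, which themselves lay well above 0 h. Osgin1, an oxidative stress response gene, rose with little spread, from 5.08 to 6.07 CPM to 25.7 to 31.2 CPM (2.31 ± 0.11, adjusted p = 4.25e-08). Itpk1, an inositol phosphate kinase, measured 12.4, 12.1, 12.2 and 10.5 CPM at 0 h and 49.6, 58.5, 46.7 and 51.8 CPM at 2 h (2.13 ± 0.10, adjusted p = 4.25e-08), and Baiap2, an adaptor of membrane protrusions, rose from 14.6 to 17.7 CPM to 56.9 to 69.0 CPM (2.00 ± 0.10, adjusted p = 4.25e-08).

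Genes of ribosome assembly rose together. Of 40 tested ribosome biogenesis genes, 34 rose and 0 fell, with a median change of 0.56. At an unadjusted p under 0.05 in edgeR the list still held 0 lower genes, and DESeq2 and limma voom called 0 lower as well. Nop56, a core protein of box C/D small nucleolar particles, measured 57.97, 54.7, 55.6 and 57.5 CPM at 0 h and 111, 119, 111 and 128 CPM at 2 h (1.06 ± 0.08, adjusted p = 1.13e-06). Grwd1 measured 21.4, 19.6, 20.8 and 20.3 CPM at 0 h and 42, 41.7, 43.99 and 49.2 CPM at 2 h (1.11 ± 0.09, adjusted p = 2.01e-06). Nop2, an RNA methyltransferase of the large subunit, measured 70.1, 71.2, 64.9 and 71.7 CPM at 0 h and 123, 124, 132 and 132 CPM at 2 h (0.88 ± 0.07, adjusted p = 2.90e-06). The 0 h values of these genes lay within a few CPM of each other, and every 2 h library was above all of them. Nip7 (0.95 ± 0.11, adjusted p = 6.88e-05) and Rrs1 (0.93 ± 0.08, adjusted p = 3.69e-06), assembly factors of the large subunit, rose as well. Without 2 h replicates 1 and 2, 30 of the 40 were called higher, and 18 with the macrophage marker level in the model.

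Small changes were found in genes of the ribosome itself. Of 73 cytosolic ribosomal protein genes, 15 rose and 0 fell (median 0.20), against 14.2% of all tested genes. The count depended on the libraries: it was 40 without 2 h replicates 1 and 2, and without 2 h replicate 4 it was 22 higher and 3 lower. Rps29, a small subunit protein, measured 78.8, 105, 99.05 and 109 CPM at 0 h and 120.1, 126, 166 and 205 CPM at 2 h (0.66 ± 0.17, adjusted p = 0.0148). It was no longer called without 2 h replicates 2 and 4 (adjusted p = 0.0631). Rpl35, a large subunit protein, measured 35.5, 47.4, 42.4 and 51.99 CPM at 0 h and 57.98, 61.98, 60.9 and 86.7 CPM at 2 h (0.59 ± 0.14, adjusted p = 0.0101), and Rpl39 changed by a like amount (0.61 ± 0.16, adjusted p = 0.0183). Replicate 4, whose short genes ran high, had the highest value of all 3 genes, and with the marker level as a term the adjusted p of Rpl35 was 0.0750 and that of Rpl39 was 0.0576. These genes have many near-identical pseudogene copies, so their read counts are uncertain.

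Of 29 translation factors, 10 rose and 5 fell (median 0.16). Eif4a1, the helicase of the cap-binding complex, measured 245, 254, 259 and 273 CPM at 0 h and 386, 411, 373 and 458 CPM at 2 h (0.66 ± 0.08, adjusted p = 9.22e-05). Eif4e, the cap-binding protein, rose from 51.5 to 61.4 CPM to 74.1 to 96.6 CPM (0.62 ± 0.09, adjusted p = 3.93e-04), with an adjusted p of 0.0518 under the marker term, and Eif6, which holds back subunit joining, rose too (0.63 ± 0.10, adjusted p = 6.60e-04). Pdcd4, an inhibitor of Eif4a1, measured 38.5, 40.4, 42.4 and 40.4 CPM at 0 h and 16.1, 14.1, 15.1 and 15.8 CPM at 2 h (-1.40 ± 0.09, adjusted p = 2.76e-07), and its groups were far apart. Eif4b, Eif4ebp2, Eef2k and Eef2 were the other 4 that fell.

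In the MYC network, Myc itself measured 42.5, 47.2, 41.1 and 45.03 CPM at 0 h and 54.01, 57.6, 59.6 and 65.6 CPM at 2 h (0.43 ± 0.08, adjusted p = 0.00221), a small difference with no overlap. Its partner-competing repressors fell: Mnt measured 61.1, 58.1, 51.8 and 63.02 CPM at 0 h and 17.9, 23.7, 23.1 and 15.1 CPM at 2 h (-1.55 ± 0.14, adjusted p = 6.47e-06), Mxd1 changed by -1.44 ± 0.16, adjusted p = 3.94e-05, and Mxd4 and Mxi1 were also lower. Mlx, a partner of glucose-sensing factors, rose (0.82 ± 0.11, adjusted p = 1.12e-04), and it shares 19.3% of its exonic bases with Psmc3ip on the opposite strand. In all, 2 of 10 network genes rose and 4 fell.

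Of 10 genes of polyamine metabolism, 5 rose and 0 fell (median 0.33). Smox, spermine oxidase, measured 27.1, 25.2, 23.7 and 27.2 CPM at 0 h and 59.5, 81.9, 68.6 and 65.5 CPM at 2 h (1.42 ± 0.11, adjusted p = 1.37e-06), and Sms, spermine synthase, was at 2.62 to 4.73 CPM and then 6.41 to 7.65 CPM (0.82 ± 0.19, adjusted p = 0.00708). The other 3 were Azin1, Srm and Amd1. With the marker term the adjusted p of Sms was 0.178. Of 11 host genes of small nucleolar RNAs, 6 rose and 0 fell (median 0.41), led by Snhg6, from 10.6 to 12.3 CPM to 17.9 to 26.4 CPM (0.82 ± 0.13, adjusted p = 5.97e-04).

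Of 25 proteasome subunits 13 rose and 0 fell (median 0.28), and of 28 respiratory chain and ATP synthase subunits 11 rose and 0 fell (median 0.21). Without 2 h replicates 1 and 2 these counts were 17 and 12. Under the macrophage marker term they were 3 and 5. In the fit of all 20 libraries they were 22 and 18. The mean log2 level of the proteasome list was 6.80 in 2 h replicate 4 and 6.45 to 6.47 in the other 2 h libraries, so the library with high short genes stood apart in this list.

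Enzymes of cholesterol synthesis formed one of the most uniform groups. Of 28 tested genes of cholesterol synthesis and uptake, 23 rose and 1 fell, with a median of 0.76. Hmgcs1, a synthase of an early step, measured 184, 224, 212 and 206 CPM at 0 h and 465, 451, 430.5 and 541 CPM at 2 h (1.19 ± 0.09, adjusted p = 1.71e-06). Idi1 (1.18 ± 0.14, adjusted p = 4.47e-05) and Hsd17b7 (1.18 ± 0.11, adjusted p = 6.83e-06), enzymes of later steps, also rose. In these 3 genes each 2 h library was above each 0 h library. Mylip, which marks the LDL receptor for degradation, was the member that fell (-0.84 ± 0.14, adjusted p = 7.19e-04). The count of rises was 21 without 2 h replicates 1 and 2 and 19 with the marker term.

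The SREBP motif TCACNCCAC, searched on both strands, was in 1 of 20 cholesterol genes with an entry (5%), Hmgcs1, and in 1.44% of tested genes. The E-box CACGTG was in 6 of these 20 genes (30%), against 11.8% of tested genes. The stretch before the start of Hmgcs1, which rose in every library, is shown because it holds the SREBP match, given in capitals.
Hmgcs1 (chr13:119690201-119690350, plus strand): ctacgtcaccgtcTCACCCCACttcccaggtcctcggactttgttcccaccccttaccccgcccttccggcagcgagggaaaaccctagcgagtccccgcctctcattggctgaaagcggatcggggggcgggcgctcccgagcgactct
Of 17 genes of fatty acid synthesis, 6 rose and 1 fell (median 0.15). Fasn, fatty acid synthase, measured 296, 282, 259 and 252 CPM at 0 h and 620.1, 638, 646 and 384 CPM at 2 h (1.07 ± 0.15, adjusted p = 4.21e-04); replicate 4 was the lowest of 2 h and still above 0 h. Elovl6, an elongase, rose from 38.1 to 42.5 CPM to 71.8 to 89.3 CPM (1.06 ± 0.09, adjusted p = 3.31e-06). Lpin1, a phosphatidate phosphatase of triglyceride synthesis, fell from 42.9 to 48.4 CPM to 15.1 to 20.7 CPM (-1.31 ± 0.11, adjusted p = 2.54e-06).

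Of 24 glycolysis genes, 17 rose and 1 fell, with a median of 0.43. Pfkfb3, which makes the activator of phosphofructokinase, measured 29.6, 31.7, 30.9 and 30.4 CPM at 0 h and 109, 142, 96.1 and 74.6 CPM at 2 h (1.79 ± 0.17, adjusted p = 2.91e-05). Hk2, a hexokinase, measured 80.3, 85.3, 83.9 and 79.7 CPM at 0 h and 191, 251, 183 and 132 CPM at 2 h (1.20 ± 0.16, adjusted p = 3.25e-04), and Pfkfb4 rose too (1.24 ± 0.14, adjusted p = 3.60e-05). Replicate 2 was the highest of the 2 h libraries in all 3 genes, and its mean log2 level over the list was 6.81 against 6.63 to 6.64 in the other 3. The member that fell was Pdk2. With 2 h replicates 1 and 2 left out, 15 were called higher, and 6 with the macrophage marker term.

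Of 20 hypoxia response genes, 9 rose and 2 fell (median 0.29). Egln3, an oxygen-sensing prolyl hydroxylase, measured 5.14, 4.47, 4.70 and 5.16 CPM at 0 h and 18.4, 26.96, 15.8 and 14.4 CPM at 2 h (1.96 ± 0.19, adjusted p = 1.43e-05). Ankrd37 was near 1 CPM at 0 h and between 2.58 and 3.47 CPM at 2 h (1.30 ± 0.23, adjusted p = 0.00114), with an adjusted p of 0.0917 under the marker term. Slc2a1, the glucose transporter GLUT1, measured 112, 115, 106 and 119 CPM at 0 h and 227, 305, 230.1 and 221 CPM at 2 h (1.12 ± 0.11, adjusted p = 1.01e-05). Slc16a3, which exports lactate, measured 106, 99.1, 82.2 and 101 CPM at 0 h and 180.2, 229, 182 and 187 CPM at 2 h (1.01 ± 0.10, adjusted p = 2.09e-05). The 2 h libraries were above the 0 h range in each, again with replicate 2 on top. Mxi1 and Kdm3a were the 2 that fell.

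The hypoxia element core ACGTGC was searched on both strands. It was in 11 of 17 hypoxia genes with an entry (64.7%) and in 6 of 24 glycolysis genes (25%). The share was 9.53% of tested genes and 6.68% of all genes with an entry. How far the choice of list members set these shares was not tested, and a match shows no binding. The core overlaps the E-box CACGTG wherever a C stands before it. The matches of 3 genes of glucose and lactate handling are shown in capitals.
Slc2a1 (chr4:119108645-119108744, plus strand): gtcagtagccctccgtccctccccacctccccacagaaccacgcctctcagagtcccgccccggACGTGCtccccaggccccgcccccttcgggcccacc
Slc16a3 (chr11:120948967-120949066, plus strand): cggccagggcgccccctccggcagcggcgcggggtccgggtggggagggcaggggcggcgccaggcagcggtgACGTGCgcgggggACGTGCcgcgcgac
Pfkfb3 (chr2:11553930-11554029, minus strand): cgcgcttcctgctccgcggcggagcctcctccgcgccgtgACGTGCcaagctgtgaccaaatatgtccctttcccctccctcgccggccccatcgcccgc
These genes rose in all 4 libraries, with no overlap. In the 1484 genes called higher that have an entry the motif was in 10.9% and in the 1212 called lower it was in 9.65%.

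Targets of Atf4, the factor of the amino acid response, were lower or not called: of 22 tested, 10 fell and 0 rose (median -0.27). Slc38a2, a transporter of neutral amino acids, measured 503, 505, 541 and 499 CPM at 0 h and 266, 262, 261 and 253 CPM at 2 h (-0.97 ± 0.07, adjusted p = 1.05e-06). Trib3, a pseudokinase that restrains AKT, fell from 110 to 127 CPM to 48.8 to 65.5 CPM (-1.02 ± 0.10, adjusted p = 1.19e-05). Slc7a11, the cystine transporter, fell from 70.8 to 82.5 CPM to 36.9 to 45.7 CPM (-0.95 ± 0.09, adjusted p = 1.03e-05). The number of falls was 6 without 2 h replicates 1 and 2, 18 without 2 h replicate 4 and 3 with the marker term. Of 19 transporters of amino acids, glucose and lactate, 6 fell and 5 rose, namely Slc2a1, Slc16a3, Slc16a1, Slc20a1 and Slc7a6.

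**Figure D4:**
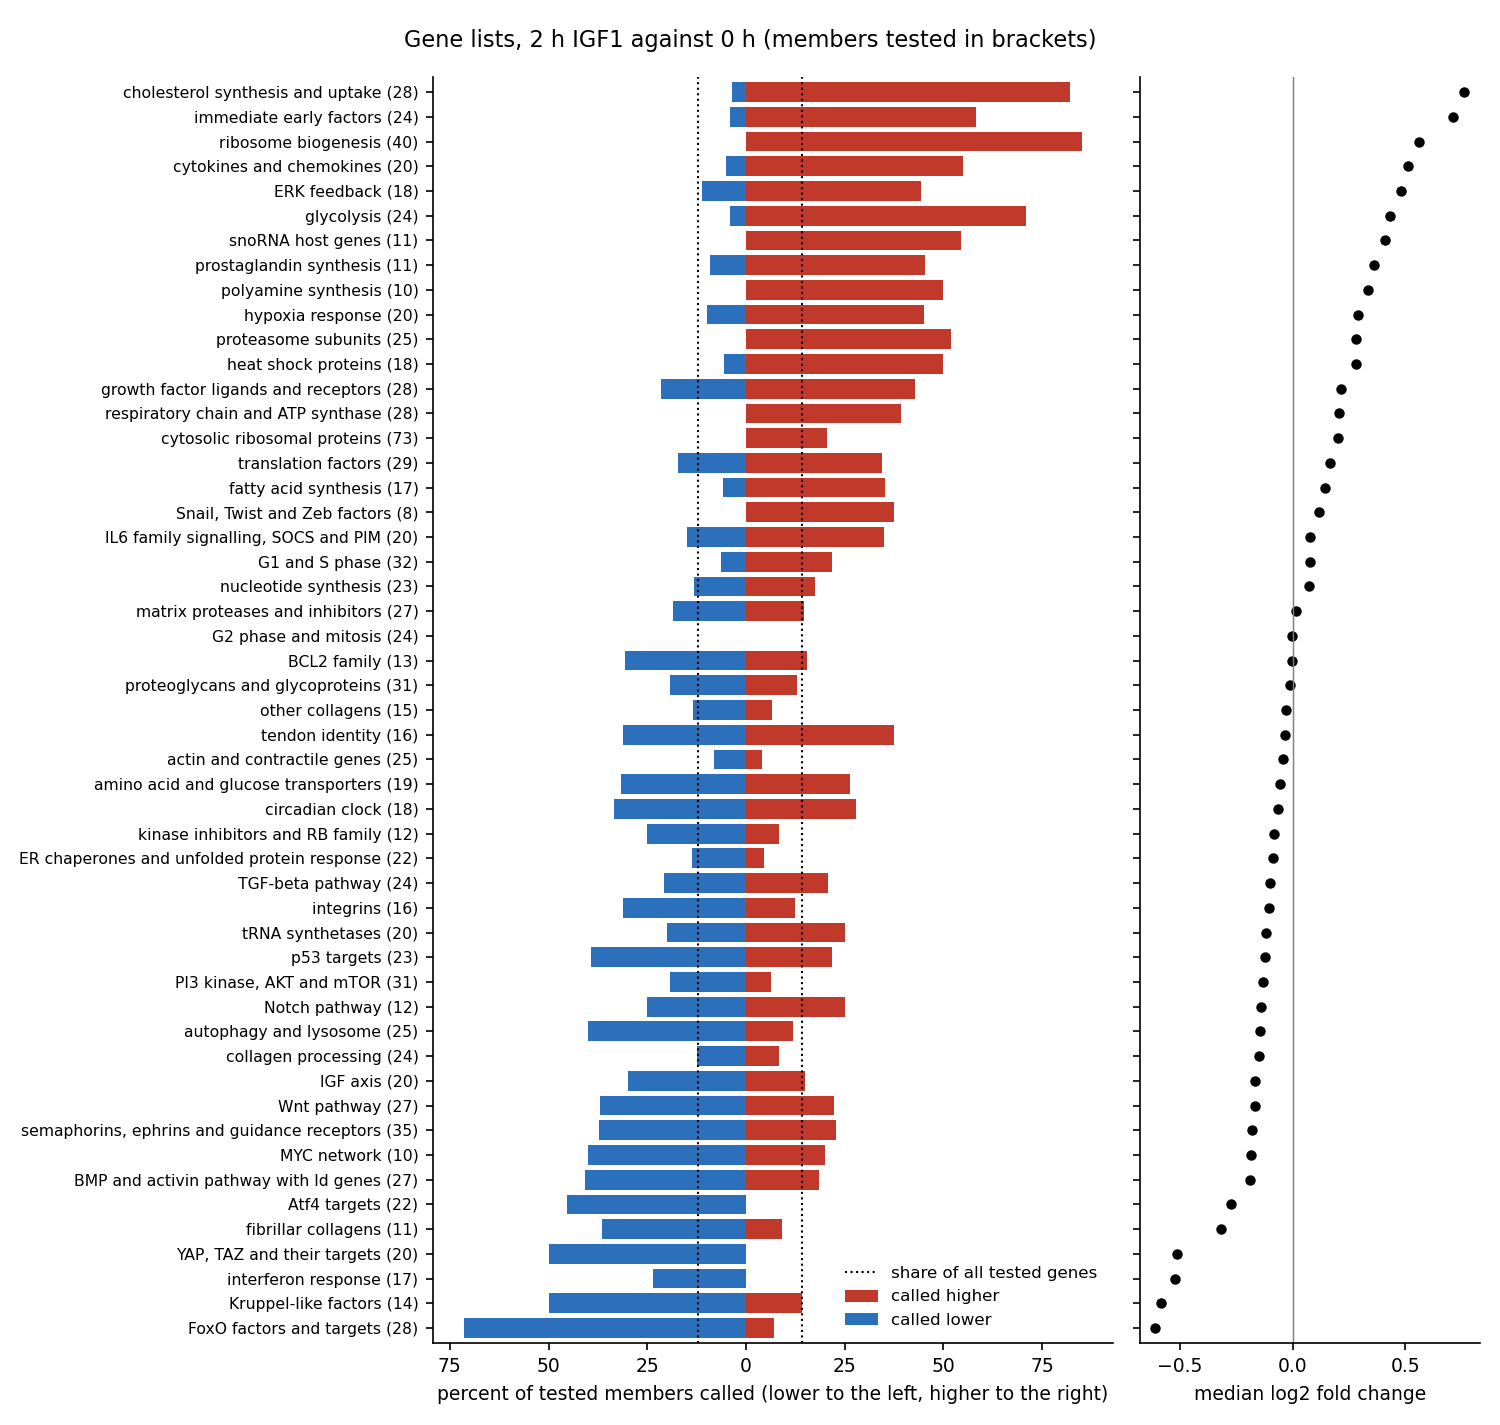
Left: percent of the tested members of 51 gene lists called higher (red) or lower (blue) at 2 h, ordered by median change, with dotted lines at the shares of all tested genes (14.2% and 12.2%). Right: median log2 fold change of each list, from -0.61 for FoxO factors and targets to 0.76 for cholesterol synthesis and uptake.

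Chemokine genes rose. Of 20 cytokines and chemokines, 11 rose and 1 fell (median 0.51). Ccl2, which attracts monocytes, measured 53.9, 67.5, 70.97 and 67 CPM at 0 h and 253, 264, 255 and 348 CPM at 2 h (2.11 ± 0.12, adjusted p = 1.54e-07). Ccl7, a related chemokine of the same cluster, measured 46.1, 50.7, 52.9 and 48.9 CPM at 0 h and 169, 165, 169 and 217 CPM at 2 h (1.86 ± 0.10, adjusted p = 7.02e-08). Cxcl1, which attracts neutrophils, measured 2.22, 2.03, 2.13 and 2.75 CPM at 0 h and 6.98, 10.3, 8.81 and 9.29 CPM at 2 h (1.95 ± 0.18, adjusted p = 7.23e-06). In Ccl2 and Ccl7 the highest library was replicate 4 of 2 h. Cxcl5 measured 21.8, 18.7, 24.97 and 24.4 CPM at 0 h and 58.7, 106, 37.1 and 59.3 CPM at 2 h (1.54 ± 0.31, adjusted p = 0.00864), with replicate 2 on top and an adjusted p of 0.118 under the marker term and of 0.0677 with the replicate block. Tslp was the member that fell (-1.06 ± 0.28, adjusted p = 0.0127), and it was no longer called without 2 h replicates 1 and 2 (adjusted p = 0.0625) or under the marker term (adjusted p = 0.317). Without those 2 libraries 11 members were called higher, and 4 under the marker term.

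Il11, a cytokine of the IL6 family, measured 1.53, 1.62, 1.69 and 1.85 CPM at 0 h and 2.77, 15.3, 3.22 and 3.79 CPM at 2 h (1.91 ± 0.59, adjusted p = 0.0442). Replicate 2 of 2 h was far above the others, and the change was 0.96 without it (adjusted p = 0.0104) and -0.17 under the marker term (adjusted p = 0.834). The call was lost with no count filter (adjusted p = 0.142) and with limma voom (adjusted p = 0.103). It was also lost without any 1 of the 0 h libraries or without 2 h replicate 4, with adjusted p of 0.0678 to 0.108. In the list of IL6 family signalling, SOCS and PIM genes, 7 of 20 rose and 3 fell. Bcl3, a nuclear cofactor of NF-kappa-B, rose from 2.94 to 3.52 CPM to 8.47 to 15.1 CPM (1.74 ± 0.20, adjusted p = 4.43e-05). Pim3 fell along with Pim1 (-1.19 ± 0.13, adjusted p = 2.19e-05), and Lifr was the third.

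Of 11 genes of prostaglandin synthesis 5 rose and 1 fell (median 0.36). Ptges, which makes prostaglandin E2, measured 11.4, 14.3, 13.9 and 13.02 CPM at 0 h and 36.5, 35.8, 33.8 and 31.3 CPM at 2 h (1.39 ± 0.10, adjusted p = 1.37e-06). Ptgs2, the inducible cyclooxygenase, measured 34.6, 53.4, 43.8 and 50.6 CPM at 0 h and 80.3, 144, 83.8 and 69.4 CPM at 2 h (1.05 ± 0.25, adjusted p = 0.0154), with replicate 2 the highest and an adjusted p of 0.424 under the marker term and of 0.0553 with no count filter. Ptges2, Slco2a1 and Ptges3 also rose, and Pla2g4a fell.

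Among 17 interferon response genes 4 fell and 0 rose, with a median of -0.52. The mean log2 level of this list varied widely among libraries of a time. It was 3.03 to 4.02 at 0 h and 2.48 to 3.19 at 2 h, which overlap, and 2.28 to 4.02 over the libraries of 1, 6 and 24 h. Ifit2, an antiviral protein that binds foreign RNA, measured 84.2, 93.8, 107 and 94.7 CPM at 0 h and 31, 25.9, 32.7 and 35.6 CPM at 2 h (-1.60 ± 0.10, adjusted p = 4.90e-07). Ifit3, its partner, measured 43.7, 45.99, 61.7 and 37.03 CPM at 0 h and 19.04, 10.9, 24.1 and 31.3 CPM at 2 h (-1.15 ± 0.30, adjusted p = 0.0251), and it was no longer called without 0 h replicate 2 (adjusted p = 0.0553), 0 h replicate 3 (adjusted p = 0.0573) or 2 h replicate 1 (adjusted p = 0.0711). It was not called with no count filter (adjusted p = 0.0867), with the replicate block (adjusted p = 0.0591) or under the marker term, where its change was -0.25 (adjusted p = 0.617). Irf9 and Irf1 were the others. The count of falls was 2 when 2 h replicates 1 and 2 were left out, 1 when they were left out of the fit of all 20 libraries, and 1 under the marker term.

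Tendon identity genes went both ways, with 6 of 16 higher and 5 lower (median -0.03). Scx, scleraxis, the transcription factor that marks tendon cells, measured 1792, 1715, 1630 and 1807 CPM at 0 h and 3975, 3356, 4442 and 5642 CPM at 2 h (1.33 ± 0.13, adjusted p = 1.59e-05). Mkx, mohawk, a homeobox factor of tendon maturation, measured 221, 212, 239 and 236 CPM at 0 h and 127, 99.3, 122 and 139 CPM at 2 h (-0.90 ± 0.10, adjusted p = 2.68e-05). Neither gene's groups overlapped, so these 2 tendon regulators differed in opposite directions. Tnmd, tenomodulin, a late tendon marker, measured 193, 178, 227 and 210 CPM at 0 h and 199, 145, 187 and 281 CPM at 2 h (0.00 ± 0.17, adjusted p = 0.993) and was not called. Eya1, a transcriptional coactivator, fell from 53.4 to 64.6 CPM to 27.6 to 33.7 CPM (-0.96 ± 0.09, adjusted p = 1.03e-05). Kera, keratocan, was higher (0.90 ± 0.16, adjusted p = 0.00228), with an adjusted p of 0.109 under the marker term. Its call was also lost without 2 h replicates 2 and 4, and in the fit of all 20 libraries without 2 h replicates 1 and 2. The adjusted p in these edgeR fits was at most 0.205.

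The 2 chains of type I collagen were called lower, but not under the marker term, where the change was -0.06 for Col1a1 (adjusted p = 0.832) and -0.06 for Col1a2 (adjusted p = 0.800). Col1a1 measured 34596, 28871, 27699 and 29462 CPM at 0 h and 22686, 17545, 28575 and 20304 CPM at 2 h (-0.44 ± 0.13, adjusted p = 0.0279). Replicate 3 of 2 h lay inside the 0 h range, and the call was lost in 5 of 8 fits that left out 1 library (0 h replicates 1, 2 and 4, and 2 h replicates 1 and 4), with adjusted p of 0.0547 to 0.121, and without 2 h replicates 1 and 2 (adjusted p = 0.133). Col1a2 measured 27196, 23876, 23633 and 24461 CPM at 0 h and 18676, 14297, 22209 and 18424 CPM at 2 h (-0.43 ± 0.11, adjusted p = 0.0145), and it was no longer called without 0 h replicate 1 (adjusted p = 0.0596). Col3a1 was not called (-0.00 ± 0.12, adjusted p = 0.998), at 2241 to 2328 CPM and then 1883 to 2914 CPM; it was called lower under the marker term (-0.43, adjusted p = 0.0337) and in the fit of all 20 libraries without 2 h replicates 1 and 2 (-0.19, adjusted p = 0.0162). Of 11 fibrillar collagens 4 fell and 1 rose, and under the marker term 1 fell and 0 rose; Col11a1 and Col5a2 were the others that fell. Col27a1 was the one that rose, at 7.97, 6.75, 9.56 and 11.2 CPM at 0 h and 24.6, 38.5, 16.4 and 13.5 CPM at 2 h (1.40 ± 0.34, adjusted p = 0.0186), and it was no longer called without 0 h replicate 1 (adjusted p = 0.0502) or 2 (adjusted p = 0.0557), with no count filter (adjusted p = 0.0695) and with the replicate block (adjusted p = 0.126). Its change was 0.75 without 2 h replicates 1 and 2 (adjusted p = 0.0121) and 0.18 under the marker term (adjusted p = 0.652).

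Other matrix genes changed in smaller numbers. Of 31 proteoglycans and glycoproteins, 4 rose (12.9%) and 6 fell (19.4%), against 14.2% and 12.2% of all tested genes. Spon2, a secreted matrix protein, measured 18.8, 16.1, 15.5 and 15.8 CPM at 0 h and 51.3, 37.3, 50.3 and 58.98 CPM at 2 h (1.58 ± 0.13, adjusted p = 2.74e-06). Thbs1, thrombospondin 1, measured 12351, 13351, 12923 and 12977 CPM at 0 h and 8670, 6370, 9989 and 6441 CPM at 2 h (-0.71 ± 0.13, adjusted p = 0.00172), with an adjusted p of 0.174 under the marker term. Cd44, the hyaluronan receptor, rose from 117 to 152 CPM to 225 to 359 CPM (1.01 ± 0.15, adjusted p = 7.52e-04), which had an adjusted p of 0.0631 under that term. Lum was the fourth that rose.

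Of 27 matrix proteases and inhibitors, 4 rose (14.8%) and 5 fell (18.5%), against 14.2% and 12.2% of all tested genes. Adamts5, an aggrecan-cutting protease, measured 1179, 1362, 1260 and 1301 CPM at 0 h and 546, 641, 681 and 502 CPM at 2 h (-1.11 ± 0.10, adjusted p = 7.15e-06), and Adamts6 fell from 38.0 to 48.4 CPM to 14.9 to 19.3 CPM (-1.24 ± 0.11, adjusted p = 6.47e-06). Adamts15 measured 1.58, 2.13, 2.62 and 2.89 CPM at 0 h and 8.37, 11.2, 6.68 and 4.07 CPM at 2 h (1.72 ± 0.30, adjusted p = 0.00121), with an adjusted p of 0.151 under the marker term, so 3 related proteases did not share a direction. Plau, Plaur and Timp1 also rose, and Adamts1, Adamts9 and Mmp11 also fell. Of 24 collagen processing genes P4ha2 and Plod2 rose (8.33%) and Lox, Loxl3 and Adamts3 fell (12.5%). Of 15 other collagens Col15a1 rose (6.67%) and Col4a5 and Col8a1 fell (13.3%). The shares of these last lists were near or under those of all tested genes.

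Among 16 integrins 2 rose (12.5%) and 5 fell (31.2%), against 14.2% and 12.2% of all tested genes. Itga5, the fibronectin receptor subunit, measured 139, 136, 138 and 146 CPM at 0 h and 232, 283, 214 and 198 CPM at 2 h (0.73 ± 0.11, adjusted p = 2.78e-04), with an adjusted p of 0.0734 under the marker term. Itgb8, a subunit that binds latent TGF-beta, fell from 18.7 to 24.0 CPM to 6.48 to 10.3 CPM (-1.30 ± 0.15, adjusted p = 3.68e-05). Of 35 semaphorins, ephrins and guidance receptors, 8 rose and 13 fell (median -0.18). Without 2 h replicates 1 and 2 these counts were 5 and 8, and under the marker term 3 and 2. Besides Sema7a, Plxnd1, a semaphorin receptor, rose from 15.2 to 21.2 CPM to 31.3 to 65.2 CPM (1.34 ± 0.21, adjusted p = 0.00117), with an adjusted p of 0.0581 under the marker term. The mean log2 level of this list was 5.69 in 2 h replicate 4 and 6.01 to 6.06 in the other 3 libraries of 2 h.

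Transcripts of the YAP and TAZ pathway, which respond to cell tension, were lower or not called. Of 20 tested, 10 fell and 0 rose (median -0.51), and 8 fell without 2 h replicates 1 and 2. Ctgf, a matricellular growth factor, measured 395, 517, 423 and 493 CPM at 0 h and 132, 132, 219.9 and 193 CPM at 2 h (-1.43 ± 0.17, adjusted p = 1.70e-04). Cyr61, its relative, measured 494, 564, 481 and 539 CPM at 0 h and 209.7, 202, 288 and 265 CPM at 2 h (-1.11 ± 0.11, adjusted p = 1.61e-05). Ajuba, a scaffold that inhibits the LATS kinases, measured 132, 109, 108 and 111 CPM at 0 h and 57.1, 51.1, 67.4 and 63.7 CPM at 2 h (-0.94 ± 0.10, adjusted p = 2.24e-05). The groups were apart in all 3 genes. The TEAD motif GGAATG, searched on both strands, was in 10 of 16 genes of this list with a promoter entry (62.5%). It was in 14.4% of tested genes and 16.6% of all genes with an entry. Ajuba is shown because it has 2 matches, both on the strand opposite to the gene's.
Ajuba (chr14:54577662-54577861, minus strand): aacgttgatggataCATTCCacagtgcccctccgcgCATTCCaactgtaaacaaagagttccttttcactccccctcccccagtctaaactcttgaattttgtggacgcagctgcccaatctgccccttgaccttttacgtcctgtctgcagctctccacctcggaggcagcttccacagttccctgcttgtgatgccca
Among 25 actin and contractile genes only Tagln2 rose (4%) and only Fhl2 and Cald1 fell (8%), under the 14.2% and 12.2% of all tested genes.

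Of 12 Notch pathway genes 3 rose and 3 fell. Notch1, a receptor, measured 10.9, 10.3, 9.94 and 10.7 CPM at 0 h and 36.9, 40.6, 39.6 and 14.2 CPM at 2 h (1.65 ± 0.30, adjusted p = 0.00509); 2 h replicate 4 was near the 0 h values and the other 3 were over 3-fold above them. Hes1, a repressor induced by Notch, measured 6.12, 9.29, 6.12 and 6.20 CPM at 0 h and 19.3, 19.7, 21.1 and 24.7 CPM at 2 h (1.61 ± 0.15, adjusted p = 7.93e-06), and Lfng, which modifies the receptor, rose from 2.40 to 3.34 CPM to 4.83 to 8.35 CPM (1.06 ± 0.20, adjusted p = 0.00220). The ligand genes went the other way: Jag1 measured 39.02, 40.3, 38.8 and 38.6 CPM at 0 h and 14.2, 18.6, 16.8 and 9.47 CPM at 2 h (-1.41 ± 0.16, adjusted p = 7.72e-05), and Dll1 fell (-0.90 ± 0.20, adjusted p = 0.00582). Maml2, a coactivator, was the third that fell. With the marker term the adjusted p of Notch1 was 0.153 and that of Dll1 was 0.0852. Notch1 shares 7.504% of its exonic bases with a gene on the opposite strand.

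In the Wnt list of 27 genes, 6 rose (22.2%) and 10 fell (37%), with a median of -0.17, against 14.2% and 12.2% of all tested genes. Axin2, a feedback target of Wnt signals, rose from 2.46 to 3.08 CPM to 5.22 to 5.93 CPM (1.01 ± 0.17, adjusted p = 7.16e-04), and Tcf7, a nuclear mediator, from 1.67 to 1.91 CPM to 4.30 to 5.48 CPM (1.41 ± 0.19, adjusted p = 1.45e-04). Wnt2b, a ligand, measured 0.649, 0.660, 0.601 and 0.521 CPM at 0 h and 2.06, 2.77, 1.21 and 0.746 CPM at 2 h (1.49 ± 0.40, adjusted p = 0.0160), and it was no longer called without 2 h replicate 2 (adjusted p = 0.0547) and without 2 h replicates 1 and 2 (change 0.68, adjusted p = 0.334) or under the marker term (change 0.29, adjusted p = 0.783).

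In the list of BMP and activin genes with Id genes, 5 of 27 rose and 11 fell (median -0.19). Nog, noggin, a secreted BMP inhibitor, measured 28.8, 22.3, 22.7 and 23.2 CPM at 0 h and 7.56, 4.18, 7.66 and 10.6 CPM at 2 h (-1.70 ± 0.22, adjusted p = 2.31e-04). Id1, a target of BMP signals, measured 11.8, 10.3, 9.83 and 10.7 CPM at 0 h and 19.4, 18.9, 26.5 and 28.9 CPM at 2 h (1.13 ± 0.14, adjusted p = 1.02e-04). Id2 measured 6.95, 6.85, 7.87 and 10.4 CPM at 0 h and 16.7, 27.2, 12.2 and 14.3 CPM at 2 h (1.14 ± 0.25, adjusted p = 0.00704), a change of 0.72 without 2 h replicates 1 and 2 (adjusted p = 0.0129) and of 0.19 under the marker term (adjusted p = 0.590). Grem1 and Inhbb also rose. Acvr2b, an activin receptor, fell but was low and overlapping, at 1.81, 1.88, 0.983 and 2.04 CPM at 0 h and 1.005, 0.503, 0.691 and 0.344 CPM at 2 h (-1.38 ± 0.37, adjusted p = 0.0153), with an adjusted p of 0.271 under the marker term. The TGF-beta list of 24 had 5 higher, among them Pmepa1, Tgfbi, Smad2 and Tgfb1, and 5 lower (Tgif1, Smurf2, Ltbp1, Ltbp2 and Smad4). Each of these counts is 20.8% of the list, against 14.2% and 12.2% of all tested genes.

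Snai1, the Snail repressor of epithelial genes, measured 16.3, 13.6, 14.6 and 14.8 CPM at 0 h and 59.2, 80.6, 68.5 and 76.4 CPM at 2 h (2.26 ± 0.11, adjusted p = 4.25e-08). Prrx2, a mesenchymal homeobox factor, rose from 30.5 to 33.8 CPM to 48.9 to 79.6 CPM (0.92 ± 0.12, adjusted p = 1.88e-04). Twist2 rose but was low and overlapping, at 4.49, 3.76, 4.10 and 3.65 CPM at 0 h and 7.27, 4.28, 9.21 and 7.69 CPM at 2 h (0.83 ± 0.21, adjusted p = 0.0120), and shares 46.5% of its exonic bases with an opposite-strand gene. These were the 3 of 8 Snail, Twist and Zeb factors called higher, and 0 were called lower.

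Of 32 G1 and S phase genes of the cell cycle 7 rose (21.9%) and 2 fell (6.25%), with a median of 0.08, against 14.2% and 12.2% of all tested genes. Of 24 genes of G2 phase and mitosis 0 were called in edgeR's test. At an unadjusted p under 0.05 this second list held 1 gene, DESeq2 and limma voom called 0, and the fit of all 20 libraries called 1. Cdk6, a kinase of G1, measured 15.1, 18.7, 21.4 and 16.6 CPM at 0 h and 29.04, 34.2, 31.3 and 24.4 CPM at 2 h (0.73 ± 0.13, adjusted p = 0.00131). Cdt1, which licenses replication origins, measured 10.3, 8.53, 7.32 and 9.66 CPM at 0 h and 15.8, 19.6, 13.8 and 17.96 CPM at 2 h (0.90 ± 0.14, adjusted p = 5.81e-04). Ccne1, cyclin E1, measured 7.74, 9.09, 5.74 and 9.04 CPM at 0 h and 13.4, 14.3, 8.69 and 15.3 CPM at 2 h (0.71 ± 0.19, adjusted p = 0.0151), with 2 h replicate 3 inside the 0 h range, and it was no longer called without 2 h replicates 1 and 2 (adjusted p = 0.0881). With the marker term 0 of the G1 and S phase genes were called in either direction, with adjusted p of 0.135 for Cdk6, 0.0862 for Cdt1 and 0.372 for Ccne1. Mcm7 and Rrm1 fell, Mcm7 by a small amount (-0.46 ± 0.10, adjusted p = 0.00599, and adjusted p = 0.0589 under the term). Mcm7 shares 7.25% of its exonic bases with Ap4m1 on the opposite strand.

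Of 23 p53 targets 5 rose (21.7%) and 9 fell (39.1%), with a median of -0.12, against 14.2% and 12.2% of all tested genes. Eda2r, a receptor of the TNF receptor family, measured 69.9, 90.6, 93.8 and 91.4 CPM at 0 h and 36.2, 39.4, 38.98 and 30.1 CPM at 2 h (-1.25 ± 0.11, adjusted p = 6.48e-06). Fas, a death receptor, fell from 14.4 to 19.4 CPM to 6.84 to 8.72 CPM (-1.14 ± 0.13, adjusted p = 4.22e-05). Plk3, a stress-response kinase, rose from 16.9 to 23.9 CPM to 35.3 to 46.3 CPM (1.02 ± 0.12, adjusted p = 6.55e-05), and Plk2, Phlda3, Pmaip1 and Cdkn1a were the other 4 that rose. In the BCL2 family 4 of 13 fell and 2 rose: besides Bbc3 the falls were Bmf (-1.69 ± 0.33, adjusted p = 0.00240), Bcl2l2 and Bcl2l1, and the rises were Bak1 and Pmaip1. Bmf, a death-promoting gene, was under 3 CPM in all 8 libraries, and its adjusted p was 0.195 under the marker term.

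Of 25 autophagy and lysosome genes 3 rose and 10 fell (median -0.14). Ulk1, the kinase that starts autophagy, measured 68.3, 64.9, 62.1 and 62.6 CPM at 0 h and 39.8, 44.2, 47.1 and 33.9 CPM at 2 h (-0.64 ± 0.10, adjusted p = 4.84e-04). Tfeb, the master regulator of lysosome genes, measured 5.79, 3.76, 4.59 and 4.36 CPM at 0 h and 10.2, 10.9, 8.23 and 12.9 CPM at 2 h (1.19 ± 0.18, adjusted p = 3.50e-04), so it went against the falls of the list; Atg16l1 and Tfe3 also rose. The falls were 9 without 2 h replicates 1 and 2 and 9 with the marker term. Of 18 clock genes 5 rose (27.8%) and 6 fell (33.3%), against 14.2% and 12.2% of all tested genes. Bhlhe40, a repressor of the clock, measured 69.8, 84.6, 81.6 and 77.4 CPM at 0 h and 227, 315, 225 and 211 CPM at 2 h (1.64 ± 0.13, adjusted p = 2.45e-06). Nr1d2 (-1.08 ± 0.12, adjusted p = 4.07e-05), Nr1d1 (-1.03 ± 0.11, adjusted p = 2.91e-05) and Per3 (-0.99 ± 0.12, adjusted p = 6.24e-05), all repressors of the clock loop, fell, whereas Ciart, another repressor, rose (0.88 ± 0.14, adjusted p = 7.05e-04). Nr1d1 shares 8.55% of its exonic bases with Thra on the opposite strand.

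Heat shock proteins were higher in 9 of 18 and lower in 1 (Hsph1), with a median of 0.28. Among 22 ER chaperones and genes of the unfolded protein response, Xbp1 rose (4.55%) and Herpud1, Eif2ak3 and Atf6 fell (13.6%). Of all tested genes 14.2% rose and 12.2% fell. Of 20 tRNA synthetases Farsa, Farsb, Hars, Kars and Rars rose (25%), and Mars, Iars, Vars and Lars fell (20%). Of 23 genes of nucleotide synthesis Ppat, Atic, Gmps and Rrm2 rose (17.4%), and Paics, Prps2 and Rrm1 fell (13%), near the 14.2% and 12.2% of all tested genes.

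Genes of macrophages and of some other cells carried the widest differences between the 2 h libraries. Of 14 tested macrophage markers 10 were called higher and 0 lower, with a median of 1.13. Ptprc, the pan-leukocyte antigen CD45, measured 1.95, 2.995, 3.39 and 2.23 CPM at 0 h and 13.1, 26.8, 4.55 and 3.90 CPM at 2 h (2.21 ± 0.68, adjusted p = 0.0495). Tyrobp, a myeloid adaptor, measured 5.88, 7.36, 6.17 and 7.95 CPM at 0 h and 19.4, 41.5, 10.5 and 14.2 CPM at 2 h (1.65 ± 0.43, adjusted p = 0.0270). Adgre1, the F4/80 antigen, measured 13.02, 9.75, 11.04 and 15.1 CPM at 0 h and 24.6, 31.7, 15.3 and 15.5 CPM at 2 h (0.84 ± 0.25, adjusted p = 0.0340). Replicates 1 and 2 of 2 h held the highest values of each gene, and replicates 3 and 4 lay nearer to the 0 h values but above all of them.

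These calls depended on single libraries. That of Ptprc was lost in 5 of 8 fits that left out 1 library (any of 0 h, or 2 h replicate 1), with adjusted p of 0.0928 to 0.118, and without 2 h replicates 1 and 2 its change was 0.68 (adjusted p = 0.0904). That of Tyrobp was lost in the same 5 fits (adjusted p of 0.0511 to 0.0720), with a change of 0.85 without 2 h replicates 1 and 2 (adjusted p = 0.00483). That of Adgre1 was lost without 0 h replicate 1, 2 or 3 or 2 h replicate 1 (adjusted p of 0.0695 to 0.0919), and its change was 0.33 without 2 h replicates 1 and 2 (adjusted p = 0.191). Cd68, a lysosomal marker of macrophages, measured 16.8, 13.8, 18.8 and 18.7 CPM at 0 h and 46.8, 93.4, 23.5 and 26.8 CPM at 2 h and was not called (1.49 ± 0.47, adjusted p = 0.0574), though it was by DESeq2 (adjusted p = 0.00782), limma voom (adjusted p = 0.0282) and the fit of all 20 libraries (adjusted p = 0.00642). With 2 h replicates 1 and 2 left out, 9 of the 14 were called higher in the fit of the remaining 6 libraries, and 0 in the fit that shares its spread with the other times.

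Itgax, which encodes the CD11c integrin of myeloid cells, measured 4.87, 2.89, 3.72 and 3.79 CPM at 0 h and 32.4, 67.01, 7.31 and 6.83 CPM at 2 h (2.90 ± 0.85, adjusted p = 0.0474). Atp6v0d2, a proton pump subunit of osteoclasts and giant cells, measured 6.67, 6.55, 7.59 and 8.71 CPM at 0 h and 44.01, 96.1, 11.9 and 13.8 CPM at 2 h (2.50 ± 0.74, adjusted p = 0.0491). Both calls were lost in 6 of 8 fits that left out 1 library (any of 0 h, or 2 h replicate 1 or 2), with adjusted p of 0.0710 to 0.117 for Itgax and of 0.0607 to 0.118 for Atp6v0d2. When 2 h replicates 1 and 2 were left out their changes were 0.88 (adjusted p = 0.0125) and 0.80 (adjusted p = 0.00421). Both genes were highest in replicates 2 and 1. Of 4 tested members of the osteoclast and giant cell list, Atp6v0d2 was the only one called in the fit of the 8 libraries. The mean at 0 h and at 2 h was 16.8 and 16.4 CPM for Acp5, 393 and 406 CPM for Ctsk, and 2.79 and 5.68 CPM for Itgb3. The marker term, which is made from macrophage markers, took the change to -0.08 for Itgax, -0.24 for Atp6v0d2, -0.19 for Ptprc, 0.05 for Tyrobp, -0.08 for Adgre1 and -0.24 for Cd68, none of them called.

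Of the 10 genes with the widest spread at 2 h, 9 are described here, and 8 of these, all but Zfp871, were highest in replicate 2. Mmp12, the macrophage elastase, measured 18.7, 14.2, 22.7 and 18.8 CPM at 0 h and 189.6, 620.4, 24.2 and 29.7 CPM at 2 h (3.55 ± 1.17, adjusted p = 0.0700). Il1rn, the interleukin 1 receptor antagonist, measured 1.48, 1.73, 2.35 and 1.70 CPM at 0 h and 18.03, 64.04, 1.55 and 2.93 CPM at 2 h (3.60 ± 1.26, adjusted p = 0.0817). Arhgap25, a regulator of small GTPases in blood cells, measured 1.25, 1.12, 1.53 and 1.70 CPM at 0 h and 11.7, 32.9, 2.42 and 2.01 CPM at 2 h (3.14 ± 1.02, adjusted p = 0.0635). Replicate 1 came next in each, and replicates 3 and 4 were nearer to the 0 h values. Tm4sf19 (3.09 ± 1.04, adjusted p = 0.0695) and Mmp10 (2.49 ± 0.98, adjusted p = 0.110), a stromelysin, had the same order of replicates 2 and 1 above the rest. These 5 genes were not called in edgeR's fit of the 8 libraries, but DESeq2 called all 5 (adjusted p of 0.00205 for Mmp12, 0.00381 for Il1rn, 0.00269 for Arhgap25, 0.00698 for Tm4sf19 and 0.0230 for Mmp10), as did the fit of all 20 libraries (0.00327, 0.00371, 0.00251, 0.00267 and 0.0106). Under the marker term each had a change below 0, from -1.15 for Mmp10 to -0.34 for Tm4sf19, and none was called.

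Another set was high in replicate 2 with a smaller or no excess in replicate 1. Ngfr, the low-affinity nerve growth factor receptor of Schwann cells, measured 0.602, 0.761, 1.15 and 1.18 CPM at 0 h and 5.31, 43.9, 1.96 and 2.18 CPM at 2 h (3.87 ± 1.28, adjusted p = 0.0682). Mcam, the pericyte and endothelial antigen CD146, measured 1.30, 2.03, 1.64 and 1.09 CPM at 0 h and 3.21, 24.6, 0.921 and 1.95 CPM at 2 h (2.36 ± 1.10, adjusted p = 0.162), and Chl1, a neural adhesion protein, measured 0.602, 1.52, 2.46 and 0.758 CPM at 0 h and 1.77, 20.5, 1.38 and 0.975 CPM at 2 h (2.24 ± 1.18, adjusted p = 0.213). None of these was called in edgeR's fit of the 8 libraries. The fit of all 20 libraries called all 3 (adjusted p of 0.0103, 0.0334 and 0.0450), and so did the authors' deposited table (0.00905, 0.0287 and 0.0383). Their changes turned to -0.89, -2.02 and -2.26 under the marker term, where Mcam was called lower (adjusted p = 0.0182), and without 2 h replicates 1 and 2 those of Mcam and Chl1 were -0.07 and -0.16. Zfp871, a zinc finger gene, was low in 1 library only, at 27.5, 33.9, 32.3 and 24.7 CPM at 0 h and 25.5, 26.7, 27.9 and 1.66 CPM at 2 h (-0.53 ± 0.65, adjusted p = 0.599), and that library is replicate 4.

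The 2 h libraries were also set against the 1 h libraries, which share the treatment. Of 13634 genes tested, 776 were called, 5.69% of them: 326 higher (2.39%) and 450 lower (3.3%) at 2 h. The count ran from 290 to 1455 in fits that left out 1 library: it was 290, 317, 416 and 406 without 1 h replicates 1 to 4, 469 without 2 h replicate 1 and 1455 without 2 h replicate 4. The comparison shares its 2 h libraries with that against 0 h, so the values are given side by side. The mean log2 level of the macrophage markers ran from 2.87 to 4.05 at 1 h, highest in replicate 4, and from 3.66 to 5.07 at 2 h. Some genes that were called higher than at 0 h were lower than at 1 h. Klf10 had 104 ± 3.93 CPM at 1 h (mean ± SD, n = 4), and its log2 change from 1 h to 2 h was -1.51 ± 0.09 (edgeR's adjusted p = 4.02e-06). Hes1 had 45.3 ± 3.62 CPM at 1 h (-1.09 ± 0.10, adjusted p = 1.33e-04) and Lfng 13.3 ± 2.10 CPM (-1.06 ± 0.18, adjusted p = 0.00480). Egr3, at 12.3 ± 1.71 CPM at 1 h, was also lower (-0.78 ± 0.15, adjusted p = 0.0103), and it was no longer called without 2 h replicates 1 and 2 (adjusted p = 0.0606).

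Several genes that had fallen since 0 h were also lower than at 1 h. Crebrf had 67.04 ± 7.07 CPM at 1 h (-1.77 ± 0.11, adjusted p = 7.31e-06), Runx1t1 had 13.3 ± 1.07 CPM (-1.57 ± 0.13, adjusted p = 7.56e-05), and Arid5b had 72.6 ± 9.06 CPM (-1.44 ± 0.14, adjusted p = 1.76e-04). Klhl24 (-1.63 ± 0.19, adjusted p = 0.00101), Ctgf (-1.28 ± 0.19, adjusted p = 0.00495), Pim1 (-1.25 ± 0.17, adjusted p = 0.00128) and Klf11 (-1.18 ± 0.16, adjusted p = 0.00124) were lower as well. Ctgf was no longer called with the replicate block (adjusted p = 0.0587). For Ctgf, the 1 h mean of 414 ± 68.6 CPM lay within its 0 h range. Irs2, at 7.64 ± 1.16 CPM at 1 h, was not called between 1 h and 2 h (-0.64 ± 0.22, adjusted p = 0.103).

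Other genes were higher at 2 h than at 1 h. Itpk1 had 14.5 ± 3.80 CPM at 1 h and changed by 1.83 ± 0.16 from there (adjusted p = 1.39e-04). Egln3 (1.40 ± 0.19, adjusted p = 0.00166), Apln (1.36 ± 0.22, adjusted p = 0.00686), S1pr1 (1.27 ± 0.18, adjusted p = 0.00211), Ddit4 (1.07 ± 0.11, adjusted p = 2.07e-04) and Baiap2 (1.04 ± 0.11, adjusted p = 2.39e-04) were higher than at 1 h. Sema7a was called too (1.70 ± 0.35, adjusted p = 0.0260), but not in any of the 4 fits that left out a 1 h library (adjusted p of 0.0681 to 0.0918), and Apln was no longer called with the replicate block (adjusted p = 0.0538).

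Later means are given as a description. At 6 h Irs2 had 8.91 ± 1.45 CPM and at 24 h 12.5 ± 1.28 CPM, still under the 0 h values. Ccng2 had 26.6 ± 5.18 CPM at 6 h and 49.6 ± 5.14 CPM at 24 h. Fosl1 was back at 10.9 ± 1.83 CPM at 24 h, within its 0 h range. Igfbp5 continued to 287 ± 28.1 CPM at 6 h and 888 ± 74.7 CPM at 24 h, and Scx had 2194 ± 103 CPM at 6 h and 1577 ± 105 CPM at 24 h. Of the macrophage genes, Ptprc had 3.56 ± 0.906 CPM at 6 h and Mmp12 had 22.8 ± 6.45 CPM.

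**Figure D5:**
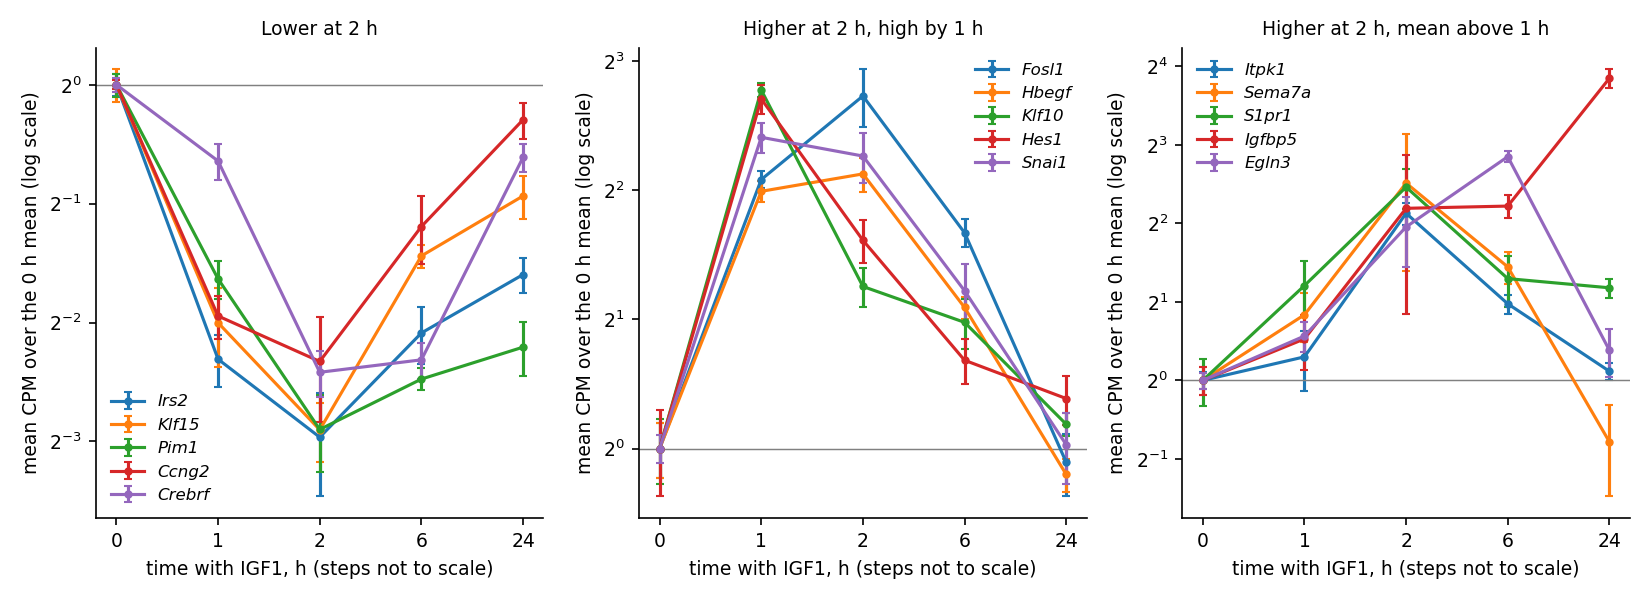
Mean CPM over the 0 h mean (log scale) at 0, 1, 2, 6 and 24 h for 5 genes lower at 2 h (left), 5 higher at 2 h and already high at 1 h (middle) and 5 higher at 2 h with a mean above that of 1 h (right); bars are the SD of 4 libraries divided by the 0 h mean. Irs2 and Pim1 stay under 1 at 24 h, Fosl1 peaks at 2 h, and Igfbp5 is highest at 24 h.

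In the authors' deposited table for this comparison, 5324 of 12207 genes had an adjusted p under 0.05, 43.6% of them, with 2789 higher and 2535 lower. Of 12194 genes in both analyses, 3521 were called here, and 3516 of these were also called in the authors' deposited table, which called 5318; 0 had the opposite direction. The fold changes were close, with a median absolute difference of 0.00256 on the log2 scale. For Irs2 the authors' deposited table gives -2.96 with an adjusted p of 2.42e-13, and for Itgax it gives 2.90 with an adjusted p of 0.00240.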

How the data were processed

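RNA was sequenced from 20 libraries, 4 at each of 5 times, and the 8 of 0 h and 2 h were analysed, with those of 1 h for 1 further comparison. The values are read counts per gene as the authors deposited them, with mm10 as the build. STAR, FastQC and edgeR are named, without versions, by the submitters' processing notes. The counting step, with its strand setting, was not given in the sources used here. Another table, deposited by the authors, holds log2 fold changes and adjusted p-values of their own. Counts were filtered with filterByExpr, scaled by TMM and tested with edgeR 4.0.16 (robust quasi-likelihood, R 4.3.3), with limma 3.58.1 and DESeq2 1.42.0 as alternatives. On simulated data with 200 genes changed by 1 log2 unit among 12684 genes of this comparison, 97% were recovered, with 9 false among 203 calls. The simulation used 1 dispersion, 0.02, for both times. In the data the median SD of log2 CPM was 0.102 at 0 h and 0.178 at 2 h, so these rates may not hold for the data. CPM values were scaled by TMM over all 20 libraries.

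The members and gene lists were chosen with earlier results of these data known. Named genes are taken from the 12 largest non-overlapping changes in each direction with a mean of at least 5 CPM, up to 5 called members of each list, 10 genes of widest spread at 2 h, the 10 smallest p in each direction, 10 set genes (Col1a1, Col1a2, Col3a1, Scx, Mkx, Tnmd, Igf1, Igf1r, Irs2 and Insr) and members in counts of 5 or fewer; not every gene this allows is named, and some are not reported here. The 1 h comparison's genes came from the same set. Same-numbered libraries of 0 h and 2 h did not deviate together, so they were not treated as pairs. In the labels, 0 h replicate 2 carries the description of replicate 1, but their counts differed beyond sampling noise (chi-square per degree of freedom 8.60), so they were kept as separate libraries.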

Additional observations from a re-analysis of the deposited data

Results flagged for a closer look

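Each value here lay apart from the other 3 libraries of its time, by a gap that Dixon's test at the 95% level calls an outlier. Of 460 groups of 4 checked, 35 were picked, against 5% that chance gives: 9 at 0 h and 26 at 2 h. Of those at 2 h, 13 were in replicate 2, 12 in replicate 4, 1 in replicate 1 and 0 in replicate 3. The genes checked include 9 named for their wide spread at 2 h, so the excess over chance is in part set by their choice.

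In 2 h replicate 2 the high values were those of Stc1 (6.09 CPM), Sema7a (30.1 CPM), Errfi1 (173 CPM), Bdkrb2 (50.3 CPM), Slc2a1 (305 CPM), Slc16a3 (229 CPM), Il11 (15.3 CPM), Bhlhe40 (315 CPM), Ngfr (43.9 CPM), Mcam (24.6 CPM) and Chl1 (20.5 CPM). The mean log2 CPM of the glycolysis list (6.81) and of the list of IL6 family signalling, SOCS and PIM genes (4.84) was also highest there.

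In 2 h replicate 4, Ccl7 (217 CPM), Ccl2 (348 CPM) and Rpl35 (86.7 CPM) were high, and Rictor (23.0 CPM), Runx1t1 (3.84 CPM), Fasn (384 CPM), Notch1 (14.2 CPM) and Zfp871 (1.66 CPM) were low. The mean log2 CPM of snoRNA host genes (5.33), heat shock proteins (6.81) and proteasome subunits (6.80) was high in this library, and that of semaphorins, ephrins and guidance receptors (5.69) was low. Per3 was high in 2 h replicate 1 (9.52 CPM).

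At 0 h, replicate 1 was apart for Nog (28.8 CPM), Ajuba (131.7 CPM), Eda2r (69.9 CPM) and the mean log2 CPM of fibrillar collagens (9.04). Replicate 2 was apart for Spry4 (11.7 CPM) and Hes1 (9.29 CPM), replicate 3 for Slc38a2 (540.9 CPM) and the mean log2 CPM of the hypoxia list (5.55), and replicate 4 for Itpk1 (10.5 CPM).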

How the results depend on the processing

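Of 170 named genes 157 were called, and 114 of these in every setting tried. The total of 3646 calls was 3647 with RLE scaling, 4097 with no count filter, 4117 with DESeq2 and 5304 with limma voom. The lower calls moved from 1682 to 2576 with limma voom and to 2527 with all 20 libraries in the fit. With the macrophage level in the model 1378 genes were called, 730 higher and 648 lower. Leaving out 1 library gave 2607 to 4657 calls, 1379 to 2474 higher and 1228 to 2183 lower; chosen after seeing the data, leaving out 2 h replicates 2 and 4 gave 4139, and leaving out replicates 1 and 2 in the fit of all 20 libraries gave 4815. Against 1 h, the 776 calls became 1400 with no filter, 1344 with DESeq2, 2357 with all 20 libraries and 290 to 1455 without 1 library. The replicate block gave 3418 calls against 0 h and 585 against 1 h; same-numbered libraries of 0 h and 2 h had correlations of -0.06, -0.03, -0.17 and 0.10, and those of 1 h and 2 h had 0.05, -0.32, 0.02 and -0.03, so neither set was treated as pairs.

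Signs turned with that level in the model for Igfbp3 (-0.0708), Stc1 (-0.0379), Il11 (-0.17), Itgax (-0.0764), Atp6v0d2 (-0.24), Ptprc (-0.19), Cd68 (-0.24), Adgre1 (-0.0841), Il1rn (-1.07), Mmp12 (-1.02), Tm4sf19 (-0.34), Ngfr (-0.89), Mcam (-2.02), Chl1 (-2.26), Arhgap25 (-0.52) and Mmp10 (-1.15). Without 2 h replicates 1 and 2, Mcam was at -0.0710 and Chl1 at -0.163, and in the fit of all 20 libraries at -0.0719 and -0.163. Tnmd, not called, was at -0.00126 with no filter, -0.0694 with limma voom, -0.0300 with the replicate block and -0.0710 without 2 h replicates 2 and 4. Leaving out 1 library put Tnmd between -0.192 and 0.134 and Col3a1 between -0.145 and 0.0829. The causes were not tested. Genes near 1 CPM rest on few counts, which limits their precision.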
